A study of Homo sapiens with 16 samples.

Results

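The gene-dense remainder of human chromosome 19 is the chromosome outside its clusters of zinc finger genes. It was taken as the 20 kb bins of build hg19 that lay outside 19.7-24.3, 36.9-38.3, 44.2-45.0, 52.0-53.9 and 56.0-58.9 Mb and that were listed in all 8 files of the second sequencing run. The rule used positions and presence in the files only. It gave 1837 bins, or 36.74 Mb. They made up 76.7% of the 2396 bins of chromosome 19 listed in all 8 files and 1.34% of the 137198 such bins on chromosomes 1 to 22 and X. The zinc finger intervals held 559 such bins.

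Hi-C was run in nuclei of K562, an established human leukaemia cell line; the labels name no treatment, and all groups share fixation in 2% formaldehyde. The groups differ in the time the chromatin was left with HindIII, 0.25, 1, 3 or 12 h, with 2 replicates each, and the stated aim was to catch the most accessible domain boundaries at short times. Every replicate was sequenced in 2 runs, and the second run, deposited at 20 kb, is described here. The labels do not say whether replicates were separate cultures, so p-values measure the spread between these libraries only, which may be technical.

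HindIII cuts DNA at AAGCTT, and Hi-C counts how often cut ends from 2 places are joined, so a contact needs a cut at both ends. Chromosome 19 is known as the most gene-dense human chromosome, rich in housekeeping genes and high in GC content. In Hi-C of many cell types, gene-rich active chromatin makes more contacts with other active chromatin, on its own and on other small gene-rich chromosomes, and the zinc finger gene clusters carry repressive marks and contact one another. Boundaries between contact domains are crossed by few contacts and often lie at active promoters and CTCF sites. K562 cells have a rearranged genome with altered copy number, so contacts between joined pieces of different chromosomes count as contacts between chromosomes. No gene is named for any bin, because no annotation of build hg19 was used here.

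The 8 libraries held between 62777251 contacts (0.25 h replicate 2) and 176412222 contacts (12 h replicate 1), and depth rose with digestion time within each replicate number. The member bins were thinly covered. The median member bin held 401 and 207 contacts at 0.25 h in replicates 1 and 2, and 914 and 803 at 12 h, against 1288 and 677, and 2176 and 1898, for the median bin of the other chromosomes. A further 158 bins outside the zinc finger intervals were listed in some of the files only and 382 in none. Of those 158, 62 and 46 were listed at 0.25 h and 139 and 141 at 12 h. In 0.25 h replicate 1 they had a median of 87 contacts where listed, close to the lowest member bin there with 79.

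A few member bins stood far above the rest. Summed over the 8 libraries the median member bin had 4056 contacts, and 19 bins had more than 10 times as many. All 19 lay within 1 Mb of the chromosome's longest run of unlisted bins, chr19:24620001-27740000, which holds the centromere. The highest, chr19:24520001-24540000, had 258649 contacts. The 65 members on both sides of that gap were 3.54% of the members and held 23.3% of their contacts, summed over bins. The main sums over the members are therefore given with and without these 65 bins.

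The gene-dense remainder gained contacts, relative to the rest of the genome, between 0.25 h and 12 h of digestion. Contacts within a bin were left out of this count. Counts are given as CPM, that is, scaled to a common total of all such contacts in each library. The median member bin had 1.99 and 1.92 CPM at 0.25 h, 2.10 and 2.07 at 1 h, 2.17 and 2.21 at 3 h, then 2.79 and 2.83 at 12 h. Both 12 h libraries lay above all others, and most of the rise came between 3 h and 12 h. The median bin of the zinc finger clusters went from 4.05 and 3.81 to 4.77 and 4.79, and that of the other chromosomes from 6.48 and 6.399 to 6.66 and 6.67. Of these 3 sets, the lowest at 0.25 h thus rose by the largest factor.

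**Figure D1:**
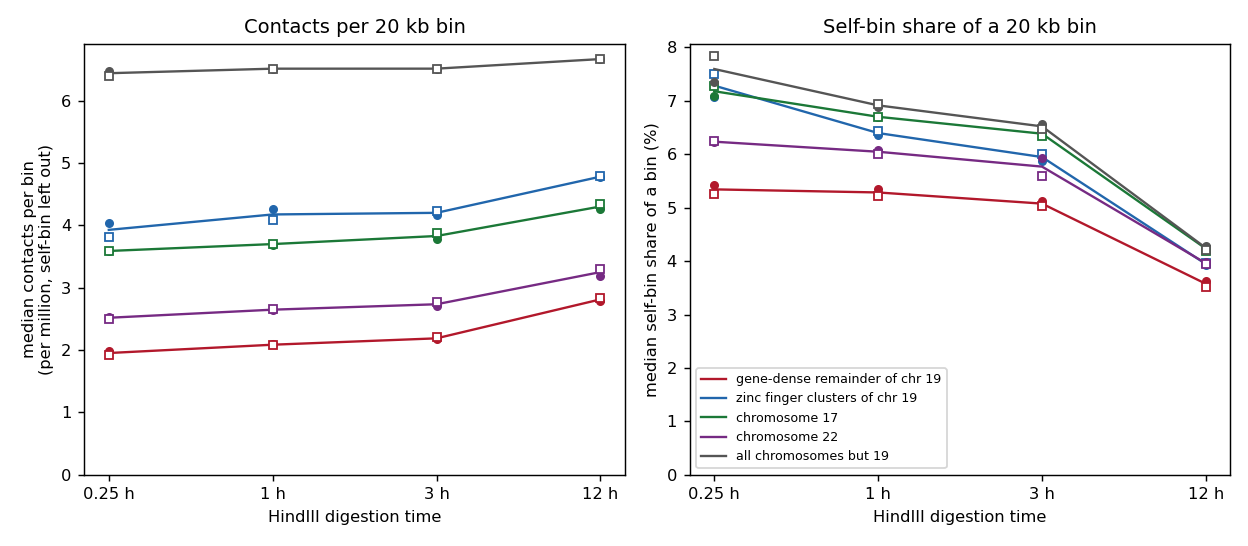
Median contacts per 20 kb bin in CPM (left) and median self-bin share in percent (right) against digestion time, for 5 sets of bins. Lines join the means of 2 libraries; filled circles are replicate 1 and open squares replicate 2. The gene-dense remainder is lowest at every time in both plots, and rises from 1.99 to 2.79 CPM in replicate 1.

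Tested bin by bin with limma over all 137198 bins, 1626 of the 1837 members (88.5%) had a lower CPM at 0.25 h than at 12 h at an adjusted p under 0.05, and 41 had more. Over all bins tested, 35% were called lower and 20.9% higher. The median difference, 0.25 h minus 12 h, was -0.51 on the log2 scale in the members, a ratio of 0.701. It was -0.25 in the zinc finger clusters, -0.25 on chromosome 17, -0.38 on chromosome 22 and -0.04 on the chromosomes other than 19. These differences between sets were not themselves tested. Of the 65 bins beside the centromere gap, 24 were higher and 22 lower at 0.25 h. Of the other 1772 members, 17 were higher and 1604 lower.

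The steps between times were uneven. Between 3 h and 12 h, 1427 members were called lower at 3 h and 42 higher by limma, against 24.2% and 14.3% of all bins, with a median member difference of -0.34. Between 0.25 h and 1 h, and between 1 h and 3 h, limma called 0 members and 0% of all bins. At an unadjusted p under 0.05, 386 members (21.01%) passed in the first of these steps and 196 (10.7%) in the other, against 9.93% and 5.85% of all bins, with median member differences of -0.08 and -0.06. Without 0.25 h replicate 1, 236 members (12.8%) passed the adjusted threshold between 0.25 h and 1 h, against 6.66% of all bins. In that fit 0.25 h is a lone library, assumed to vary like the libraries of the other times.

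Bins with few contacts differed most, in the members and elsewhere. Among members with a mean under 250 contacts per library (345 bins) the median difference between 0.25 h and 12 h was -0.69. It was -0.62 from 250 to below 500 contacts, -0.49 from 500 to below 1000, -0.28 from 1000 to below 2000, and -0.06 in the 94 members with 2000 or more. In the same classes on the other chromosomes the medians were -0.37, -0.29, -0.16, -0.04 and 0.07. At a like level of contacts the members' median was thus the lower in each of the 5 classes. The difference between the sets within a class was not tested.

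**Figure D2:**
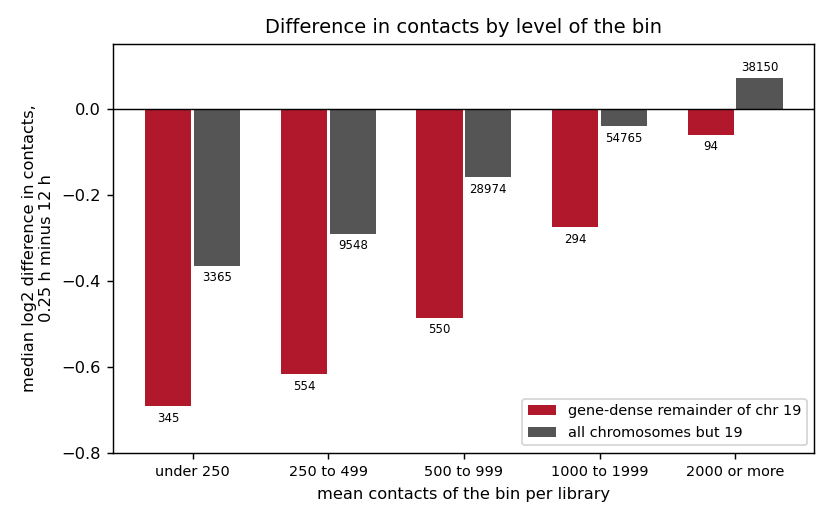
Median log2 difference in contacts per bin, 0.25 h minus 12 h, by mean contacts of the bin per library, for the gene-dense remainder (red) and all chromosomes but 19 (grey); numbers at the bars count bins. Red bars run from -0.69 in the lowest class to -0.06 in the highest, and lie below the grey bar in every class.

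The 4 member bins with the largest loss at 0.25 h, at least 500 kb apart, were all on the short arm. Bin chr19:1940001-1960000 had 0.572 and 0.495 CPM at 0.25 h, 0.626 and 0.660 at 1 h, 0.794 and 0.745 at 3 h, then 1.46 and 1.496 at 12 h. The bin held only 112 and 51 contacts in the 0.25 h libraries, where the 12 h libraries had 485 and 433. Its log2 difference was -1.46 ± 0.12 (standard error, limma adjusted p = 9.44e-09). Bins chr19:2560001-2580000, chr19:19380001-19400000 and chr19:11140001-11160000 differed by -1.27, -1.24 and -1.19. In each of the 4 bins both 0.25 h libraries lay below both 12 h libraries.

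The 4 largest differences in the other direction were smaller, and all lay on the long arm. Bin chr19:50180001-50200000 had 2.33 and 2.49 CPM at 0.25 h, 2.17 and 2.14 at 1 h, 2.36 and 2.54 at 3 h, and only 1.32 and 1.42 at 12 h, a log2 difference of 0.82 ± 0.08 (limma adjusted p = 6.73e-08). Bins chr19:54680001-54700000, chr19:44160001-44180000 and chr19:39100001-39120000 differed by 0.69, 0.52 and 0.52. The first of these 4 bins held no contact within itself in any of the 8 libraries.

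To see where along the chromosome the loss lay, the remainder was divided into stretches between the zinc finger intervals, those over 7 Mb again at each multiple of 5 Mb. The 10 stretches with at least 50 members are called A to J from the short arm's tip. They are A (chr19:1-5000000), B (chr19:5000001-10000000), C (chr19:10000001-15000000), D (chr19:15000001-19700000), E (chr19:25000001-30000000), F (chr19:30000001-35000000), G (chr19:35000001-36900000), H (chr19:38300001-44200000), I (chr19:45000001-52000000) and J (chr19:53900001-56000000). The remaining 2 stretches held 16 and 9 members. All were cut by position, and the gene density of a single stretch was not measured. Of the 16, which lie between the first zinc finger interval and stretch E, 11 had more contacts at 0.25 h and 1 had fewer.

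Contacts were lower at 0.25 h in most bins of each of the stretches A to J, by different amounts. In stretch A 135 of 142 members were called lower by limma and 0 higher, with a median log2 difference of -0.75. Stretches B, C and D had medians of -0.55, -0.61 and -0.62, with 188 of 200, 191 of 196 and 186 of 195 members lower. Stretch E, which takes in most of the gap, had a median of -0.15, with 62 of 112 members lower and 18 higher. The long arm then ran from -0.31 in stretch F through -0.51 in G and -0.43 in H to -0.56 in I and -0.51 in J. Stretches E and F, next to the centromere, had the smallest medians of the 10, and A the largest. Stretch A was also the poorest in contacts, with a mean of 1.17 and 1.09 CPM per bin at 0.25 h and 1.83 and 1.84 at 12 h, and E the richest, with 10.4 and 11.4, then 10.3 and 10.3.

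The share of a bin's contacts that joined 2 ends within the same 20 kb bin fell with digestion. Shares over a set add up its bins, so a contact between 2 bins of the set counts for both, and a self-bin contact once. Over all members this self-bin share was 17.7% and 22.5% at 0.25 h, 16.1% and 16.9% at 1 h, 15.4% and 15.4% at 3 h, then 9.10% and 8.89% at 12 h. The means were 20.1% ± 3.42 at 0.25 h and 8.99% ± 0.151 at 12 h (SD, n = 2). The replicates were furthest apart at 0.25 h, where replicate 2 had the higher share. Without the 65 bins beside the gap the share went from 13.01% and 16.8% to 6.70% and 6.55%, and in those 65 bins from 30.9% and 35.8% to 19.6% and 19.4%. In the other chromosomes it went from 11.3% and 13.7% to 6.18% and 6.07%.

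The typical member bin had a low self-bin share. The median over members was 5.42% and 5.26% at 0.25 h, 5.36% and 5.21% at 1 h, 5.13% and 5.02% at 3 h, then 3.63% and 3.52% at 12 h, against 7.34% and 7.85% falling to 4.28% and 4.21% for the other chromosomes. The sum over members was above that of the other chromosomes and the median below it. By limma on the log2 ratio of contacts inside the bin to all others, 955 of 1837 members (52.0%) were higher at 0.25 h than at 12 h and 7 lower, where 64.7% and 0.147% of all bins were. The median log2 difference was 0.78 in the members and 0.82 over all bins. With these settings the members' share of calls was the smaller one. With a pseudocount of 5 the order turned, as 1518 members (82.6%) were higher and 0 lower, against 79.6% and 0.00146% of all bins. A fixed pseudocount raises this ratio most where few contacts lie inside the bin, thus in thin bins and in the shallower 0.25 h libraries. That setting therefore favours calls of higher at 0.25 h by itself, and cannot decide which share of calls is the larger.

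On simulated unchanged bins this test gave p-values that were too small in bins with few contacts, as the test of the trans share did. With the variance trend taken on contacts per bin, a setting that held its level there, 783 members (42.6%) were higher and 4 lower, against 65.4% and 0.219% of all bins. In the main fit, without that trend on contacts, 721 members were higher at 3 h than at 12 h and 8 lower, against 56.8% and 0.0991% of all bins. Without 12 h replicate 2 the members called in that step fell to 461 (25.1%), against 37.9% of all bins. In the earlier 2 steps limma called 0 members and 0% of bins. At an unadjusted p under 0.05, 426 members (23.2%) passed between 0.25 h and 1 h and 138 (7.51%) between 1 h and 3 h, against 19.8% and 3.4% of all bins. With the variance trend on contacts these were 186 (10.1%) and 43 (2.34%), against 19.6% and 3.27%, so that the members' share lay above that of all bins in 1 setting and below it in the other. Without 0.25 h replicate 1, which leaves a lone library at 0.25 h and takes the spread from the other times, 575 members (31.3%) passed the adjusted threshold in the first of these steps, against 32% of all bins.

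The single bins named next were picked for the largest falls in self-bin share. By class of contacts the members' median difference had no steady trend. From the lowest class to the highest it was 1.32, 0.57, 0.68, 0.85 and 1.03. Bin chr19:42800001-42820000 had a share of 53.4% and 66.7% at 0.25 h, 37.8% and 44.1% at 1 h, 33.9% and 35.8% at 3 h, then 10.3% and 8.84% at 12 h. Its log2 difference was 3.81 ± 0.26 (limma adjusted p = 3.16e-05), in the main fit, whose p-values were too small in bins with few contacts. It kept its direction and call in 14 alternatives and lost the call in 1. Bins chr19:7380001-7400000, chr19:15140001-15160000 and chr19:5280001-5300000 differed by 4.03, 3.96 and 3.81. These kept direction and call in all 15 alternatives. At 0.25 h these 4 bins held between 105 and 312 contacts. In all 4 the share was lower at 3 h than at 0.25 h in both replicates and lower again at 12 h. The 4 largest differences in the other direction, chr19:1520001-1540000, chr19:46520001-46540000, chr19:4960001-4980000 and chr19:41180001-41200000, rested on few contacts inside the bin. All 4 had a share of 0 in 0.25 h replicate 2, and the differences of the last 3 turned positive with a pseudocount of 5, to 0.57, 0.31 and 1.09. That of the first shrank to -0.23 and lost its call. Such a pseudocount by itself raises the ratio more in the shallower 0.25 h libraries.

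Contacts with other chromosomes, called trans contacts, made up 20.6% and 21.9% of the members' contacts at 0.25 h, 21.1% and 21.6% at 1 h, 20.8% and 21.6% at 3 h, then 21.4% and 21.8% at 12 h, with self-bin contacts left out. The 4 times overlapped. Beyond 1 Mb of the gap the share was 22.4% and 24.6% at 0.25 h and 22.1% and 22.7% at 12 h, and these times overlapped too. Within 1 Mb of it the share was 14.3% and 14.05% at 0.25 h and 17.99% and 17.4% at 12 h, with both 12 h libraries above the other 6. On the other chromosomes the share rose from 12.0% and 12.9% to 13.3% and 13.5%.

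Bin by bin, limma called 0 members in trans share relative to cis in any of the 4 comparisons. Of all bins it called 0% higher and 0.00146% lower between 0.25 h and 12 h, and 0% in the other 3 comparisons. At an unadjusted p under 0.05, 465 members (25.3%) passed between 0.25 h and 12 h, against 12.5% of all bins, and the median member difference was 0.17 against -0.06 over all bins. In the steps from 0.25 h to 1 h, 1 h to 3 h and 3 h to 12 h, 170 (9.25%), 109 (5.93%) and 220 (11.98%) members passed at that unadjusted level, against 6.63%, 4.15% and 5.57% of all bins. With the variance trend on contacts per bin, 320 members (17.4%) passed it between 0.25 h and 12 h, against 14.5% of all bins. In the 3 steps 94 (5.12%), 51 (2.78%) and 99 (5.39%) then did, against 6.75%, 3.81% and 7.03%, so that in each step the members' share turned from above to below that of all bins. At the adjusted threshold this trend called 5 members (0.272%) higher and 20 (1.09%) lower at 0.25 h than at 12 h, against 0.0576% and 1.26% of all bins, and 14 (0.762%) lower at 3 h than at 12 h, against 0.0547%. Without 0.25 h replicate 1, and with the usual trend, 14 members (0.762%) were called between 0.25 h and 12 h, against 0.109% of all bins, with 0.25 h as a lone library. No single bin is therefore named for this share.

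Because single bins held few trans contacts, windows of 500 kb were also tested, a test added after the shares of the stretches had been seen. Of 84 windows made of members alone, limma called 41 (48.8%) higher in trans share at 0.25 h than at 12 h and 2 lower. Over all 5625 windows 1.69% were higher and 18.4% lower, and on chromosome 17, which is also gene-rich, 5 of 157 were higher and 15 lower. On chromosome 22 it was 3 and 2 of 69. With the variance trend on contacts per window, 34 member windows (40.5%) were higher and 3 lower, against 1.46% and 19.7% of all windows. The count depended on both 12 h libraries: 9 member windows (10.7%) were called without 12 h replicate 1 and 11 (13.1%) without 12 h replicate 2, against 1.58% and 0.711% of all windows. The median member difference was 0.15 and 0.19 in these fits, beside 0.17 with all libraries. It rested on the 0.25 h libraries too, which differed from each other. Without 0.25 h replicate 1 the median was 0.28 with 61 windows (72.6%) called, against 18.7% of all windows. Without 0.25 h replicate 2 it was 0.07 with 27 windows (32.1%) higher and 7 lower, against 0.924% and 59.7%. In these 4 fits the time left with a lone library takes its spread from the others.

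The windows with a higher trans share at 0.25 h lay mostly on the short arm. In stretches A to D, 30 of 37 windows were called higher, and beyond the first zinc finger interval 11 of 47. The latter were uneven, with 0 of 5 in E, 0 of 10 in F and 1 of 11 in H, but 2 of 3 in G, 5 of 14 in I and 3 of 4 in J. Of 19 windows made of zinc finger bins alone, 3 were higher and 3 lower. In stretch A the trans share was 32.3% and 36.4% at 0.25 h, 32.4% and 33.9% at 1 h, 32.1% and 33.1% at 3 h, then 27.9% and 28.7% at 12 h, so that both 12 h libraries lay below the other 6. Stretch D went from 27.8% and 30.4% at 0.25 h to 25.6% and 26.5% at 12 h. Stretch E went the other way, from 14.6% and 14.6% to 17.7% and 17.3%, and the 2 windows called lower were in it. In stretch F, with 20.1% and 21.7% at 0.25 h and 20.9% and 21.4% at 12 h, 0 of 10 windows were called.

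**Figure D3:**
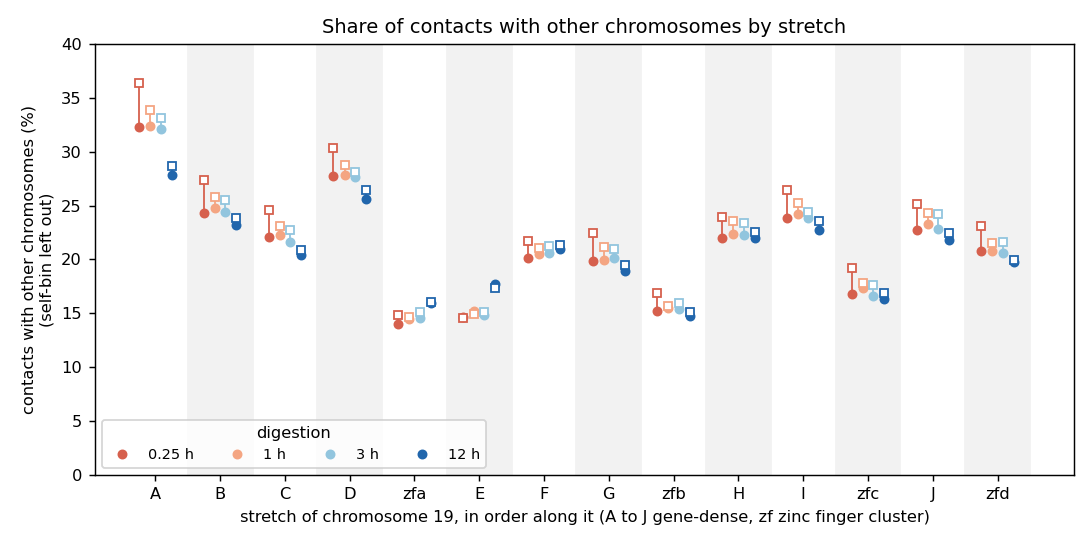
Share of contacts with other chromosomes in percent, self-bin contacts left out, for the stretches A to J and the 4 zinc finger clusters with at least 50 bins (zfa to zfd), in order along chromosome 19; colours are digestion times, filled circles replicate 1 and open squares replicate 2. Stretch A falls from 32.3% and 36.4% at 0.25 h to 27.9% and 28.7% at 12 h, and stretch E rises from 14.6% and 14.6% to 17.7% and 17.3%.

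The trans contacts went preferentially to other gene-rich chromosomes. For each partner chromosome the members' contacts were divided by the number given by that chromosome's share of all trans contacts, with the 65 bins beside the gap left out. That share includes contacts between joined pieces of different chromosomes in K562, which were not set apart. The order of the partners may therefore depend on them. Chromosome 17 had 2.05 and 2.04 times that number at 0.25 h, 2.04 and 2.07 at 1 h, 2.06 and 2.108 at 3 h, then 2.21 and 2.19 at 12 h. Chromosome 22 followed with 1.80 and 1.86, then 2.04 and 2.01. Chromosome 16 had 1.70 and 1.70, then 1.82 and 1.83, and chromosome 20 had 1.61 and 1.58, then 1.68 and 1.71. For these 4 chromosomes both 12 h libraries lay above both 0.25 h libraries. With the 65 bins in, the ratios were nearer to 1, such as 1.84 and 1.81, then 1.99 and 1.996, for chromosome 17, and the 12 h libraries again lay above.

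The low end was held by large or gene-poor chromosomes. Chromosome 13 had 0.634 and 0.681 times the expected contacts at 0.25 h and 0.615 and 0.601 at 12 h. Chromosome X had 0.717 and 0.732, then 0.663 and 0.663, and chromosome 4 had 0.743 and 0.732, then 0.684 and 0.679. For these 7 chromosomes the 12 h values were thus further from 1 than the 0.25 h values, with no overlap between the 2 times. They were named from the high and low ends of the range, a choice that itself favours values far from 1. How many of the other partners moved in the same way is not given here, and no test was made. The zinc finger clusters were less selective, with 1.36 and 1.297 for chromosome 17 at 0.25 h and 0.846 and 0.836 for chromosome 13. Chromosome 5 depended on the 65 bins: over all members it had 1.47 and 1.49 at 0.25 h and 1.31 and 1.31 at 12 h, and without them 0.932 and 0.927, then 0.876 and 0.874.

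**Figure D4:**
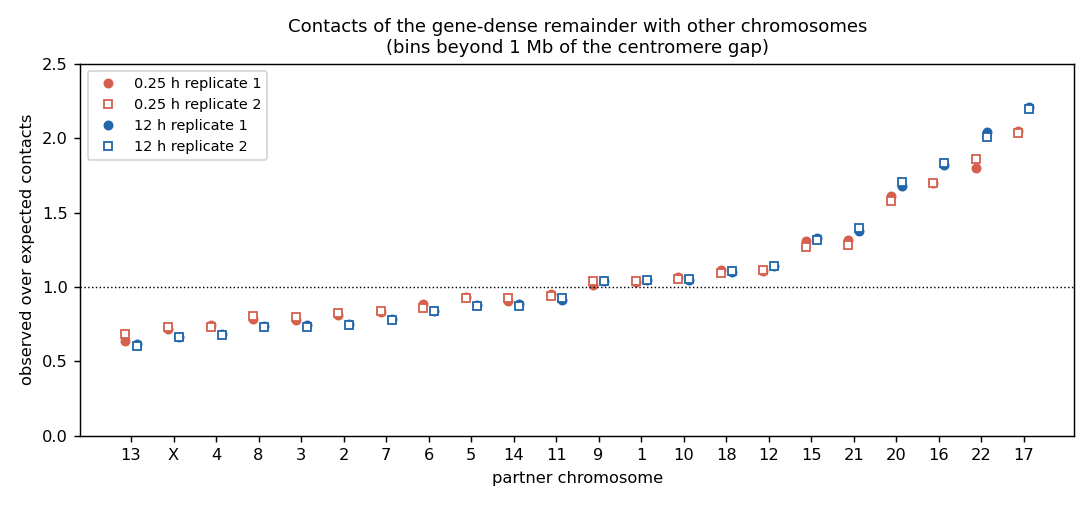
Contacts of the gene-dense remainder with each other chromosome over the number expected from that chromosome's share of all contacts between chromosomes, bins beside the centromere gap left out, at 0.25 h (red) and 12 h (blue); filled circles are replicate 1 and open squares replicate 2, and the dotted line marks 1. Values run from 0.615 and 0.601 for chromosome 13 to 2.21 and 2.19 for chromosome 17 at 12 h.

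Within chromosome 19, the share of the members' contacts between different bins that spanned middle distances was higher at 12 h. Contacts over 20 to 100 kb made up 45.9% and 47.2% of them at 0.25 h, 46.1% and 45.9% at 1 h, 46.8% and 45.7% at 3 h, then 42.9% and 41.8% at 12 h. Contacts over 100 kb to 1 Mb made up 32.0% and 31.3% at 0.25 h and 35.9% and 36.0% at 12 h. Without the 65 bins beside the gap the short class moved less, from 39.6% and 39.1% to 38.8% and 37.7%, and the middle class from 35.2% and 35.4% to 38.3% and 38.4%. There the longer classes were lower at 12 h, with 15.97% and 16.1%, then 14.1% and 14.7%, over 1 to 5 Mb, and 6.76% and 6.84%, then 5.94% and 6.21%, over more than 5 Mb on the same arm. With the 65 bins in, these classes went from 13.9% and 13.6% to 13% and 13.5%, and from 5.68% and 5.51% to 5.32% and 5.57%. Both 12 h libraries stood apart from the earlier ones in the middle class with and without those bins. The zinc finger bins moved the same way, from 35.7% and 35.6% to 33.0% and 32.4% over 20 to 100 kb and from 39.7% and 39.3% to 42.4% and 42.4% over 100 kb to 1 Mb. Contacts with the other arm made up 2.42% and 2.48% at 0.25 h and 2.91% and 3.05% at 12 h, and without the 65 bins 2.40% and 2.53%, then 2.85% and 3.02%.

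At 1 Mb or more, contacts were set against the chromosome's own average at the same distance. Member pairs had 0.788 and 0.791 times the average at 0.25 h and 0.825 and 0.838 at 12 h in whole contacts, and without the 65 bins 0.694 and 0.683, then 0.757 and 0.773. In the balanced signal, in which each bin has the same total, they had 0.987 and 0.988, then 0.970 and 0.971, so the direction of this difference turned with the scale. Pairs of a member and a zinc finger bin had 0.850 and 0.847 times the average at 0.25 h and 0.831 and 0.842 at 12 h in the balanced signal. In whole contacts that ratio was 1.04 and 1.04, then 0.986 and 0.980, but without the 65 bins it was 0.805 and 0.773, then 0.781 and 0.789. Pairs of zinc finger bins had 1.72 and 1.71, then 1.91 and 1.87, in the balanced signal, and 2.56 and 2.56, then 2.47 and 2.39, in whole contacts. Members and zinc finger bins thus met each other less than the average of these distances in the balanced signal at both times, and zinc finger bins met each other more.

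Single pairs of stretches differed widely in the balanced signal. Stretches D and G, on opposite sides of the centromere, had 1.68 and 2.13 times the average at 0.25 h and 2.45 and 2.01 at 12 h, so that the times overlapped. Stretches D and H had 1.95 and 1.95, then 1.97 and 2.07, and A and I, near the 2 ends of the chromosome, had 1.65 and 1.78, then 1.77 and 1.68. At the low end, stretches A and E had 0.256 and 0.119 times the average at 0.25 h and 0.216 and 0.218 at 12 h. In this signal the libraries of the 2 times overlapped for D with G, A with I and A with E. Whole contacts gave other levels and, for the first 2 of these pairs, times that did not overlap. There D and G had 0.947 and 0.964 times the average at 0.25 h, thus below it, and 1.44 and 1.29 at 12 h. D and H had 1.07 and 1.02, then 1.25 and 1.36, and A and I 1.18 and 1.31, then 1.38 and 1.32. On that scale both 12 h libraries lay above both 0.25 h libraries for these 3 pairs. The pairs were picked as examples after the values were seen. For how many of all pairs of stretches the times stood apart is not given here. Whole contacts do not even out the total of each bin, and most bins of stretches A, D, G, H and I had fewer contacts at 0.25 h. Whether the pair values follow from that was not tested. A and E stayed low, with 0.317 and 0.170, then 0.262 and 0.226, and overlapped.

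**Figure D5:**
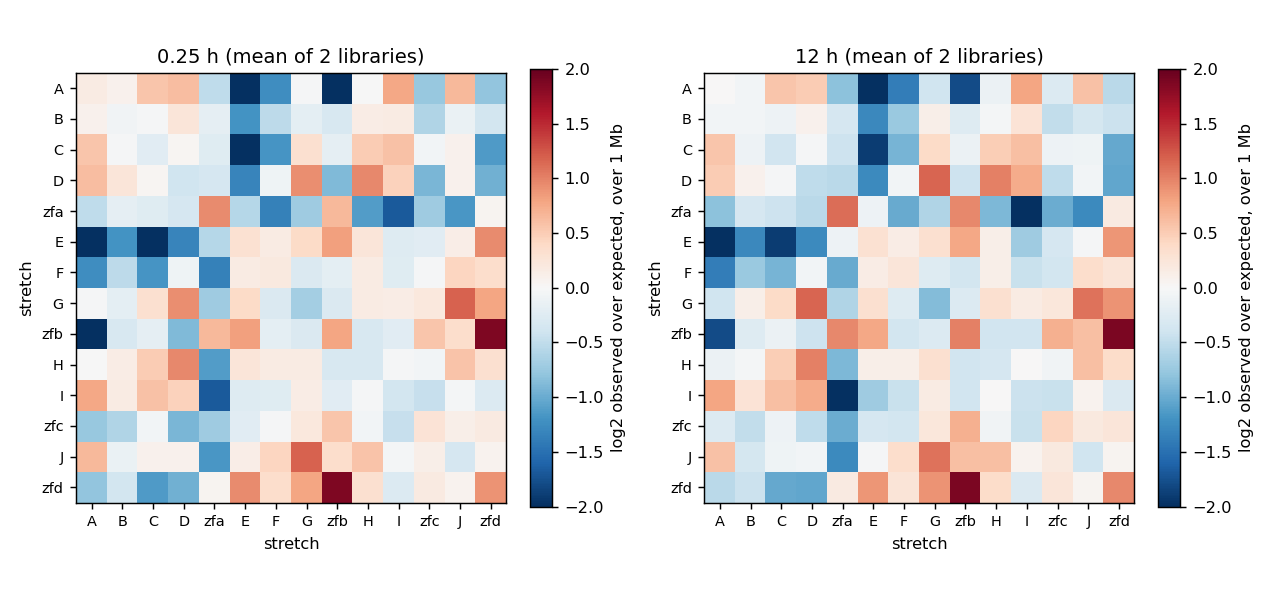
Balanced contacts between stretches at 1 Mb or more over the chromosome average at the same distance, as log2, at 0.25 h (left) and 12 h (right), each the mean of 2 libraries. A to J are stretches of the remainder, cut by position, zfa to zfd are zinc finger clusters, and colours stop at 2 in both directions. In the balanced signal stretches D with G and D with H are above average at both times, while in whole contacts, not drawn, D with G is at 0.947 and 0.964 at 0.25 h; stretch E is below average with A to D on both scales.

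Boundaries were local minima of the insulation score, the log2 of the balanced contacts that cross a bin within 200 kb relative to the chromosome mean, with a prominence of at least 0.2. Libraries were first thinned to 30361835 cis contacts within 2 Mb. The members held 125 and 134 boundaries at 0.25 h, 124 and 127 at 1 h, 118 and 116 at 3 h, then 116 and 107 at 12 h. Per Mb there were 3.40 and 3.65 at 0.25 h, and at 12 h 3.16 and 2.91, against 2.64 and 2.64, then 2.47 and 2.45, on the other chromosomes together. Chromosomes 17 and 22 lay close to the members, with 3.58 and 3.40, then 3.18 and 3.04, on 17, and 3.79 and 3.95, then 3.24 and 3.21, on 22. With a window of 100 kb in place of 200 kb the densities overlapped at 0.25 h and the members' was the lower one at 12 h, with 4.87 and 5.31 per Mb at 0.25 h and 4.35 and 4.35 at 12 h, against 4.90 and 5.03, then 4.55 and 4.55, on the other chromosomes. In all 4 sets both 12 h libraries had fewer boundaries than both 0.25 h libraries with either window. Domains made of members alone had a median length of 240 and 240 kb at 0.25 h and 260 and 280 kb at 12 h, against 340 and 340, then 360 and 360 kb, elsewhere. After the thinning chromosome 19 still held 278695 and 278529 contacts within 2 Mb at 0.25 h and 327269 and 330027 at 12 h. With chromosome 19 brought to equal numbers too, the members had 125 and 134 boundaries at 0.25 h and 115 and 115 at 12 h, and median domains of 240 and 240 kb, then 250 and 240 kb, so that the times no longer stood apart in domain length.

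Member boundaries were compared between 0.25 h and 12 h by position. Of the boundaries found in both replicates within 1 bin, there were 75 at 0.25 h and 62 at 12 h. The single replicates had 125 and 134, then 116 and 107, so many boundaries did not recur between replicates of the same time. Of the 62 at 12 h, 32 (51.6%) lay within 1 bin of one of the 75, and 33 of the 75 (44.0%) within 1 bin of one of the 62. For the lists of 1 h and 3 h, 53.2% and 66.1% of the 62 did. The overlap between times was not tested against the spread between replicates. On the other chromosomes these shares were 73.2% and 69.8%, on chromosome 22, also thinly covered, 57.1% and 52.9%, and in the zinc finger clusters 5 of 15 (33.3%) and 5 of 13 (38.5%). The members' shares thus lay between those of the zinc finger clusters and of chromosome 22. The difference between these shares was not tested.

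The strength of the boundaries was not found to differ. Of 6075 boundaries of all libraries together, 100 were in members. limma called 0 of these and 0% of all between 0.25 h and 12 h, and 13 (13%) of the members passed at an unadjusted p under 0.05, against 6.5% of all boundaries. The median member difference was -0.02, the same as on the other chromosomes to this precision. The deepest member boundary, chr19:15680001-15700000, had scores of -1.52 and -1.63 at 0.25 h, -1.42 and -1.23 at 1 h, -1.61 and -1.15 at 3 h, then -1.34 and -1.20 at 12 h. Its difference of -0.30 ± 0.15 did not pass (limma adjusted p = 0.8003), and the 2 libraries of 3 h stood further apart than that. The next deepest were chr19:32740001-32760000, chr19:31140001-31160000 and chr19:36740001-36760000, with differences of -0.01, 0.03 and 0.01.

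In the median domain contacts were slightly more confined at the shorter times, in the members and elsewhere. In 78 domains made of members alone, the median share of contacts within 2 Mb between different bins that stayed in the domain was 34.3% and 33.3% at 0.25 h, 34.7% and 33.9% at 1 h, 34.3% and 33.7% at 3 h, then 32.7% and 32.2% at 12 h. On the other chromosomes that median went from 38.1% and 37.4% at 0.25 h to 36.2% and 35.5% at 12 h. In the zinc finger clusters it went from 36.1% and 35.9% to 34.4% and 33.4%. By limma 20 of the 78 member domains (25.6%) were higher at 0.25 h than at 12 h and 2 lower, against 33.5% and 0.829% of 5909 domains. With the variance trend on contacts 13 member domains (16.7%) were higher and 1 lower, against 40.5% and 0.897% of all domains. Without 12 h replicate 2, with the usual trend, 9 (11.5%) were called, against 10% of all domains, and 15 (19.2%) without 0.25 h replicate 1, against 14.3%. The members' share of calls was thus below that of all domains with all libraries, and not in these 2 fits.

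The largest rise at 0.25 h was in the domain chr19:47340001-47520000, with a within-domain share of 47.7% and 42.1% at 0.25 h, 42.1% and 44.6% at 1 h, 44.8% and 42.9% at 3 h, then 37.0% and 36.1% at 12 h. The log2 difference was 0.50 ± 0.09 (limma adjusted p = 0.00165), and both 12 h libraries lay below the other 6. Domains chr19:39700001-39940000 and chr19:40340001-40760000 differed by 0.46 and 0.39. The 2 domains called in the other direction were chr19:51280001-51420000, with 16.4% and 18.9% at 0.25 h and 21.6% and 21.4% at 12 h, and chr19:19100001-19620000, with 37.3% and 38.2%, then 40.3% and 43.9%. Neither of these passed with the variance trend on contacts.

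The cut site itself was looked for in promoters. In RefSeq promoters of the later build GRCh38.p14, from 250 bases before to 50 after a gene's start, AAGCTT reads the same on both strands and was found in 76 of 1594 promoters (4.77%) of chromosome 19 whose gene symbol does not start with ZNF, ZFP or ZSCAN. It was found in 12 of 323 (3.72%) of those whose symbol does, and in 5.84% of all 35116 promoters. These promoters were not matched to bins, as the builds differ.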

How the data were processed

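Each deposited file lists pairs of bins with a balanced contact signal; the authors used HiC-Pro 2.11.1, Bowtie2 2.3.4.1 and build hg19, per the submitters' processing notes, and roles and filters are not given in the sources used here. Bin numbers were read as hg19 bins of 20 kb (second run) or 50 kb (first run). The signal is whole contacts times a factor per bin. Solving for the factors gave whole contacts within 0.01 for 100% of listed pairs in all 16 files. All values are whole contacts unless called balanced. Self-bin, cis, trans and distance shares over a set add up its bins, so a contact between 2 of its bins counts for each.

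Self-bin share, scaled contacts (CPM) and trans over cis ratio per bin were tested as log2 values (pseudocount 0.5) with limma 3.58.1 in R 4.3.3, all 4 times in 1 fit, eBayes with a trend, and Benjamini-Hochberg adjustment over all bins. Duplicates cannot be told apart in these files, so it is not known whether each count is an independent molecule.

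Bins named are the 4 largest called differences in each direction with the same sign in both replicate numbers, at least 500 kb apart. Boundaries named are the 4 deepest, and domains the 3 largest called in each direction. For contacts per bin, deviations of same-numbered libraries correlated weakly, at 0.113 to 0.254 over 6 pairs of times. Replicate 1 was also the deeper library at every time. The main fits used no replicate block. The labels name no shared origin.

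Members, lists and stretches were chosen with earlier results of these data known. Scripts were tested on simulated data, where the fits of the 2 shares gave too small p-values in bins with few contacts; a variance trend on contacts per bin was therefore added.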

Additional observations from a re-analysis of the deposited data

How the results depend on the processing

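Alternatives were run one at a time on the differences between times. Of the counts and sums over the members, 279 alternative values stayed within 1.5 times the main count or within 1 SD, 27 moved further and 5 turned sign; of single bins, domains and boundaries, 309 kept their direction and call, 17 lost the call and 6 turned sign. In the first run at 50 kb, whose bins are fewer and larger, 398 of 727 members (54.7%) were called for the self-bin share and 518 (71.3%) for contacts between 0.25 h and 12 h, against 65.9% and 27.8% of all 55271 bins, and 234 (32.2%) and 152 (20.9%) between 3 h and 12 h, against 39.7% and 6.92%. A pseudocount of 5 gave 1518 self-bin calls (82.6% of members, 79.6% of all bins), and turned bins chr19:46520001-46540000, chr19:4960001-4980000 and chr19:41180001-41200000 to 0.57, 0.31 and 1.09. This setting by itself raises the self-bin ratio more in the shallower libraries of 0.25 h. The variance trend on contacts gave 25 and 14 trans calls for 0.25 h and 3 h against 12 h, and 14 domains; a 100 kb insulation window gave 34 of 111 domains (30.6%, against 34.1% of all).

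Leaving out 1 library gave 0 to 575 self-bin and 0 to 236 contact calls between 0.25 h and 1 h, 461 to 858 self-bin calls between 3 h and 12 h, 0 to 14 trans calls between 0.25 h and 12 h, 9 to 61 trans windows and 9 to 24 domains. The share of all bins, windows or domains called is given above for some of these fits only. For the fits with 858 self-bin calls and with 24 domains it is not given here. These ranges therefore show how far the counts moved. They cannot show whether the members differed from the whole series. Leaving out 1 library also moved the boundary chr19:32740001-32760000. Its difference was -0.13 without 12 h replicate 2, 0.11 without 12 h replicate 1 and 0.06 without 0.25 h replicate 2. The boundary chr19:36740001-36760000 moved between -0.16 (without 12 h replicate 1) and 0.17 (without 12 h replicate 2).

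For 0.25 h minus 12 h over the members, the self-bin share differed by 11.1 percentage points, by 4.76 in the balanced signal and by 8.29 without the bins beside the gap. The cis share differed by 2.67 points, and by 0.835 and 0.917 in these settings. Without self-bin contacts it differed by 0.312 points, by -0.0145 in the balanced signal, -0.403 in the first run, -1.13 without the bins beside the gap, and -0.342 to 0.967 with 1 library left out. The member ratio at 1 Mb or more differed by -0.0418, by 0.0171 in the balanced signal and -0.0761 without those bins, and the ratio to zinc finger bins by 0.0584, then 0.0118 and 0.00407. The 0.25 h libraries had a mean of 18 more member boundaries, 27 with a 100 kb window, 10 with 400 kb, 30.5 at each library's own depth and 11.5 at a prominence of 0.4.

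With the replicate block, 1684 members were called for contacts, 1013 for the self-bin share and 0 for the trans share per bin between 0.25 h and 12 h, with 63 trans windows and 32 domains. No count moved by over 1.5 times. The share of all bins, windows or domains called with the block is not given here. These counts therefore cannot show whether the members differed from the whole series in those fits. Same-numbered libraries correlated at 0.0170 to 0.129 for the self-bin share and -0.000624 to 0.0173 for the trans share. The main fits did not take the numbers as pairs for any measure. The cause of these changes was not tested. Depth limits single bins: the lowest member bin held 39 contacts in 0.25 h replicate 2.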
